A study of Mus musculus with 2 samples.

Results

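The proteasome is the large protease that degrades ubiquitin-tagged proteins in the cytosol and nucleus. Its 20S core is a barrel of alpha rings and beta rings, and the catalytic beta subunits cut the substrate; the 19S cap, built of a base with ATPases and a lid, recognises, unfolds and feeds in the tagged protein. In immune cells the constitutive catalytic subunits Psmb5, Psmb6 and Psmb7 can be replaced by the interferon-inducible Psmb8, Psmb9 and Psmb10, which makes the immunoproteasome, and the PA28 alpha-beta cap (Psme1 and Psme2) can bind the core in place of 19S; both are known for their part in making peptides for MHC class I.

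The constitutive proteasome genes were taken as every gene in the feature lists whose symbol begins with Psma, Psmb, Psmc, Psmd or Psme followed by a digit, apart from the immunoproteasome genes Psmb8, Psmb9 and Psmb10. The rule gave 42 of 27998 genes. Of these, 8 encode the 20S alpha ring, 4 the structural beta subunits, 3 the constitutive catalytic beta subunits, 6 the ATPases and 3 the other subunits of the 19S base, and 8 the 19S lid; these 32 genes are called the 26S subunits below. The remaining members are 3 assembly chaperones of the 19S base (Psmd5, Psmd9, Psmd10), 3 PA28 alpha-beta genes (Psme1, Psme2 and the copy Psme2b), the other activators Psme3 and Psme4, the thymic beta subunit Psmb11, and Psmc3ip, which shares the prefix but encodes a partner of recombinases in meiosis and is no proteasome subunit.

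Single-cell RNA was measured in sorted immune cells from subcutaneous flank tumours of B16Ova, a mouse melanoma line that carries ovalbumin, in female mice on day 13. The KO mice carried E8i-cre with floxed Tcf7 alleles (Tcf7 FL/FL), and the WT mice carried the same floxed alleles without the Cre. E8i-cre acts in mature CD8 T cells, so the other cells of KO mice are not a direct target of the deletion. Cells of 3 tumours were combined into 1 droplet library per genotype, with 2000 cells of each of 4 sorted categories per tumour and 7000 cells loaded. With 1 library per group there is no replicate check and no p-value: all intervals are exact 95% intervals for counting error only, which leave out the spread between mice, and the differences below compare these libraries and not the genotypes.

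The KO library held 1219 barcodes with 11758449 UMIs (molecules counted by their molecular tag), and the WT library held 1120 barcodes with 9283014 UMIs; 1 barcode occurred in both and none of the cells kept did. After filters, 1083 KO and 983 WT cells remained, and classes were gated per cell on marker UMIs. The classes were CD8 T cells (189 KO and 174 WT cells), Foxp3-negative CD4 T cells (150 and 111), Foxp3-positive CD4 T cells (33 and 58), conventional dendritic cells of type 1, cDC1 (134 and 123), and of type 2, cDC2 (57 and 38), and mature dendritic cells, which carry Fscn1 and Ccl22 (41 and 61). Checked on genes outside the gates, T cell genes summed to 1209 CPM in KO and 1506 CPM in WT CD8 T cells but to 2.59 and 3.16 CPM in cDC1, and the 6 mature dendritic cell check genes summed to 8179 and 8928 CPM in that class. CPM is the UMIs of a gene, summed over the cells of a class, per 1000000 UMIs of that class. Tcf7 stood at 55.9 CPM in KO CD8 T cells, against 161 CPM in WT CD8 T cells. It was also lower in KO Foxp3-negative CD4 T cells, at 104.8 CPM, against 228.9 CPM in WT.

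**Figure D1:**
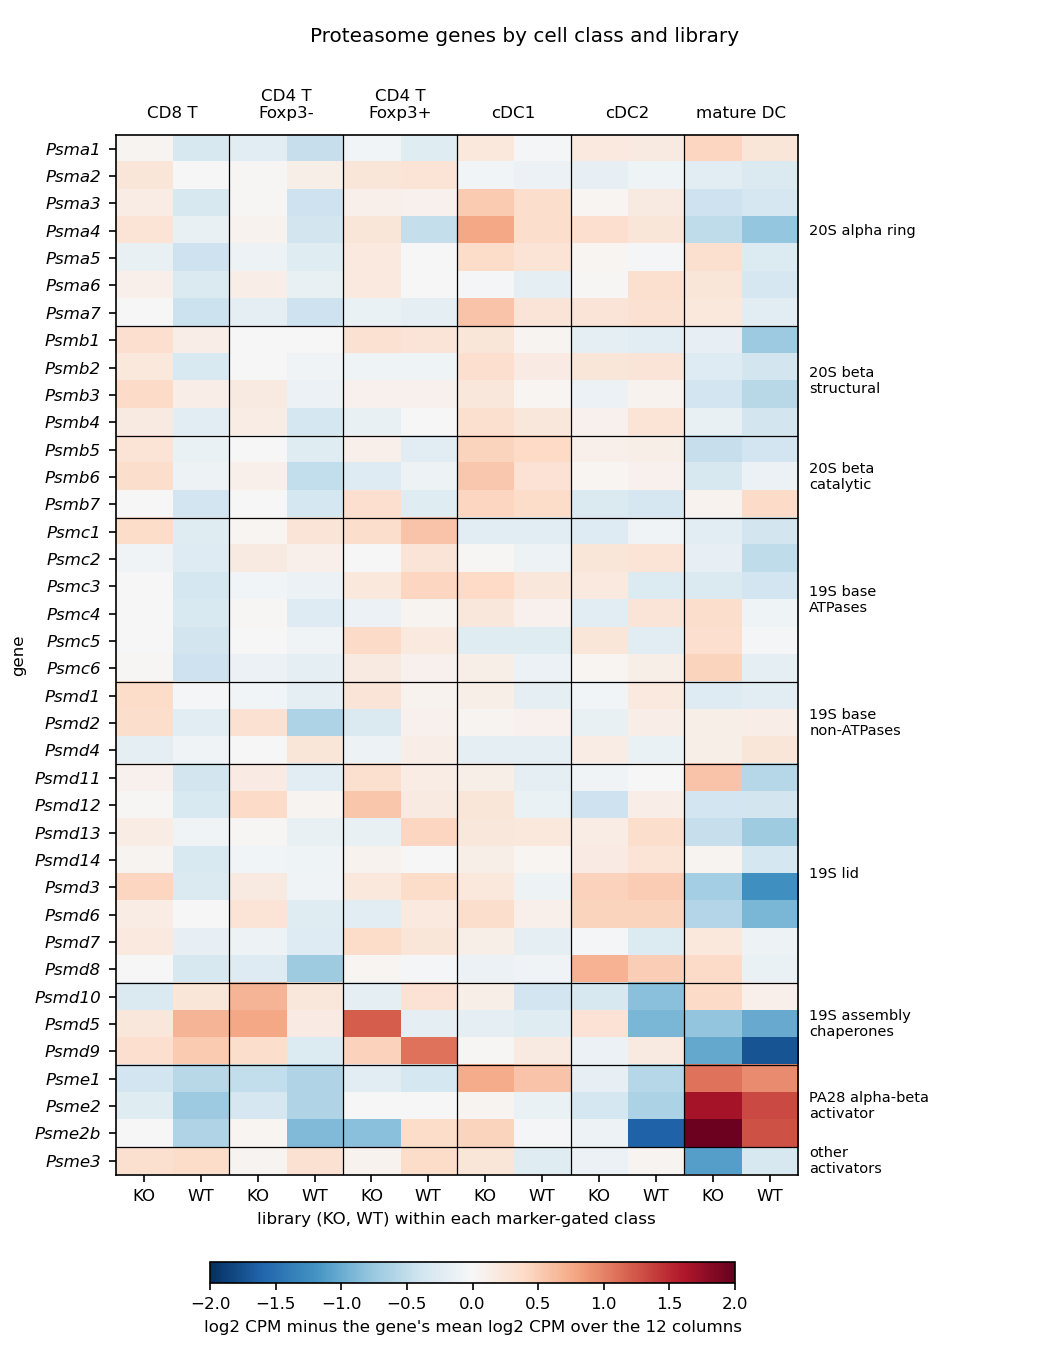
Each row is a member gene that reached 50 CPM in at least 1 class and library, ordered by subcomplex; columns are the KO and WT libraries of each class, and colour is log2 CPM minus the gene's own mean over the columns. The PA28 genes are darkest red in mature dendritic cells of both libraries, while Psmd3, Psmd6, Psmd9 and Psma4 are blue there.

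Sequence around the start sites is given first. Of the 42 members, 35 had an entry in the RefSeq promoter table (GRCm38.p6; 250 bases before to 50 after the start), with 38 windows. The letters CCGGAAG, a core bound by ETS factors, were searched on both strands and occurred in 40.7% of the 27 windows of 26S subunit genes, against 8.86% of all 32851 windows in the table. The antioxidant response element core TGACNNNGC, the sequence bound by the Nrf family (Nfe2l1 raises proteasome genes when proteasomes are inhibited), occurred in 14.8% of 26S windows and 12.4% of all windows. CCAAT was found in 37.0% of 26S windows and 37.4% of all, and the interferon-stimulated response element core (GAAA, any 2 bases, GAAA) in 7.41% of 26S windows, against 3.44% of all. A match describes the letters of the window and shows no binding, and windows of neighbouring or alternative starts share sequence.

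The windows of 4 members are shown because they carry the values that follow. Psmb5 is a catalytic subunit that is lower in mature dendritic cells than in cDC1, and Psmd12 is a lid subunit with an ETS core. Psme1 is a PA28 gene whose level differs between classes, though less than those of Psme2 and Psme2b. Psmd4 is the ubiquitin receptor with the lowest KO to WT ratio in CD8 T cells among members that reached 50 CPM. Capitals mark the motifs above, in lower case is the rest, and the start site is base 251 of each window. In Psmb5 (chr14:54617946-54618245, minus strand) the antioxidant response core begins 47 bases before the start.
Psmb5: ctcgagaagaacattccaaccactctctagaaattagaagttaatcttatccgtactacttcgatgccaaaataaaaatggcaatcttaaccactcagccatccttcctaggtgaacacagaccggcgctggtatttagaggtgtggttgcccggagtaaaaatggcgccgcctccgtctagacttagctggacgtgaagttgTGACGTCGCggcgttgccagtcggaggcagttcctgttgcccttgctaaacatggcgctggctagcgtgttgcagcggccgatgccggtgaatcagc
In Psmd12 (chr11:107479278-107479577, plus strand) an antioxidant response core begins 247 bases before the start and an ETS core 17 bases before it.
Psmd12: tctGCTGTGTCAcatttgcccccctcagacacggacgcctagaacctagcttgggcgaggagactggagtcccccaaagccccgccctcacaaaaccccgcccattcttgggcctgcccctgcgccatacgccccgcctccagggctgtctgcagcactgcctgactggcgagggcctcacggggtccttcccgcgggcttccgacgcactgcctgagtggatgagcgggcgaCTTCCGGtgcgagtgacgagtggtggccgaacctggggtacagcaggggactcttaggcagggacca
In Psme1 (chr14:55578244-55578543, plus strand) the interferon-stimulated response core begins 9 bases after the RefSeq start. The GENCODE annotation starts Psme1 further upstream, at chr14:55578123, so this whole window lies inside the GENCODE gene.
Psme1: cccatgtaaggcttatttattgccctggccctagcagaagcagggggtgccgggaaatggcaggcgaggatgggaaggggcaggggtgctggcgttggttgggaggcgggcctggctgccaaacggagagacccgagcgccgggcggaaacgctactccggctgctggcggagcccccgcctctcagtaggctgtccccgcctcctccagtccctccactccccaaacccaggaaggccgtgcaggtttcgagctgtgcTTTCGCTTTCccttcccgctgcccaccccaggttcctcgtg
In Psmd4 (chr3:95042565-95042864, minus strand) an ETS core, an interferon-stimulated response core and 3 CCAAT boxes are marked.
Psmd4: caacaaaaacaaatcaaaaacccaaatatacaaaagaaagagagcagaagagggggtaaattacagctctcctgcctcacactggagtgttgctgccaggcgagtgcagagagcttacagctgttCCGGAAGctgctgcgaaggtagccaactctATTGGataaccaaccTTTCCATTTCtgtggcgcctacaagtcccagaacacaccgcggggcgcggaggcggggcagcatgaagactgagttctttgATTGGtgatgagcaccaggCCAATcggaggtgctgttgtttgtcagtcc
The windows of Psme2 hold none of the 4 motifs.

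The members are spread over 16 chromosomes, with 10 on chromosome 11 and 6 on chromosome 14 (GRCm38, GENCODE annotation). Psme1 (chr14:55578123-55581529) and Psme2 (chr14:55587441-55591113) are close neighbours on opposite strands, as are Psmb5 (chr14:54614119-54618022) and Psmb11 (chr14:54621433-54629556). The transcripts of Psme2 and Psme2b, which lies on chromosome 11, share 789 of 794 aligned bases (99.4%), so how the counting split reads between them is uncertain and values of either carry that doubt.

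The level of the 26S subunits, summed over the 32 genes, differed less between cell classes than that of PA28. In the KO library the 26S sum was 6713 CPM in cDC1 (6608 to 6819), 6220 CPM in CD8 T cells (6112 to 6329), 5941 CPM in Foxp3-positive CD4 T cells (5675 to 6217), 5920 CPM in cDC2 (5753 to 6091), 5644 CPM in Foxp3-negative CD4 T cells (5505 to 5786) and 5335 CPM in mature dendritic cells (5104 to 5574). In the WT library it was 6061 CPM in cDC2 (5856 to 6271), 5954 CPM in cDC1 (5845 to 6065), 5817 CPM in Foxp3-positive CD4 T cells (5606 to 6033), 4883 CPM in CD8 T cells (4760 to 5008), 4860 CPM in Foxp3-negative CD4 T cells (4672 to 5053) and 4493 CPM in mature dendritic cells (4312 to 4680). Mature dendritic cells had the lowest summed 26S level in both libraries, and the order of the other classes differed between the libraries. The intervals of mature dendritic cells overlapped those of Foxp3-negative CD4 T cells in both libraries. The ratio of the Foxp3-negative class to mature dendritic cells was 1.058 in KO (1.006 to 1.113) and 1.082 in WT (1.022 to 1.145). With each cell counted equally, mature dendritic cells were not lowest, at 5034 CPM in KO and 4375 CPM in WT. Foxp3-negative CD4 T cells then had 4376 and 4320 CPM, and CD8 T cells 5046 and 4143 CPM. Intervals of Foxp3-positive CD4 T cells and cDC2 overlapped in both libraries, and those of the CD8 T and Foxp3-negative CD4 T classes overlapped in WT only.

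Ribosomal and mitochondrial genes took a larger part of the UMIs in T cells, 33.0% in KO and 35.1% in WT CD8 T cells, against 20.7% and 21.5% in mature dendritic cells, and CPM of every other gene falls as that part grows. On totals without those genes, the 26S sum was 9287 CPM in KO and 7526 CPM in WT CD8 T cells, 8871 and 7988 CPM in cDC1, and 6731 and 5726 CPM in mature dendritic cells. Mature dendritic cells stayed lowest of the 6 classes on that scale in both libraries, while CD8 T cells stood first in the KO library and cDC1 in the WT library.

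PA28 alpha-beta, the cap that opens the core without ATP, showed the widest range of any subcomplex. Psme1, its alpha subunit, stood at 2091 CPM in KO and 1894 CPM in WT mature dendritic cells. In cDC1 Psme1 had 1633 CPM in KO and 1453 CPM in WT, and in the other classes it lay between 646 and 877 CPM. The mature class and cDC1 were thus above every other class for Psme1 in both libraries. Psme2, the beta subunit, had 2921 CPM in KO and 2307 CPM in WT mature dendritic cells. In every other class and library Psme2 lay between 559 and 965 CPM. Its copy Psme2b followed at 109.5 CPM in KO and 68.2 CPM in WT mature dendritic cells, against at most 38.5 CPM elsewhere. Psme2 was 3.03-fold higher in mature dendritic cells than in cDC1 in the KO library (2.81 to 3.26) and 2.75-fold higher in the WT library (2.54 to 2.96), while Psme1 was 1.28-fold higher in KO and 1.303-fold higher in WT.

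The summed level of each 20S subcomplex was lower in mature dendritic cells than in cDC1 in both libraries, although single genes such as Psma1 were not, and the 19S genes were mixed. The structural beta genes summed to 1007 CPM in KO and 830.0 CPM in WT mature dendritic cells, against 1443 and 1286 CPM in cDC1. The non-ATPase genes of the 19S base were at 341.8 CPM in KO and 362.4 CPM in WT mature dendritic cells, against 322.9 and 307.9 CPM in cDC1, with overlapping intervals in both libraries. Of 35 members that reached 50 CPM, 8 were at least 1.5-fold lower than in cDC1 in both libraries, where 27.6% of all genes tested were lower by this rule; 2 members, Psme2 and Psme2b, were higher, where 23.6% of all genes were. The shares of members higher and lower were thus not above those of all genes. The 8 were the alpha ring genes Psma3 and Psma4, the structural gene Psmb3, the catalytic gene Psmb5, the ATPase Psmc3, and the lid genes Psmd3, Psmd6 and Psmd13. Psma4 was at 146.9 CPM in KO mature dendritic cells, against 357.5 CPM in KO cDC1, and at 122.8 CPM in WT mature dendritic cells, against 268.9 CPM in WT cDC1. Psmd3 had 42.7 CPM in KO mature dendritic cells and 79.1 CPM in KO cDC1, and 29.2 CPM in WT mature dendritic cells and 63.8 CPM in WT cDC1. The median log2 ratio of the members was -0.19 in KO and -0.23 in WT, beside -0.16 and -0.14 for all genes tested, so the decline of a typical member was close to that of a typical gene.

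**Figure D2:**
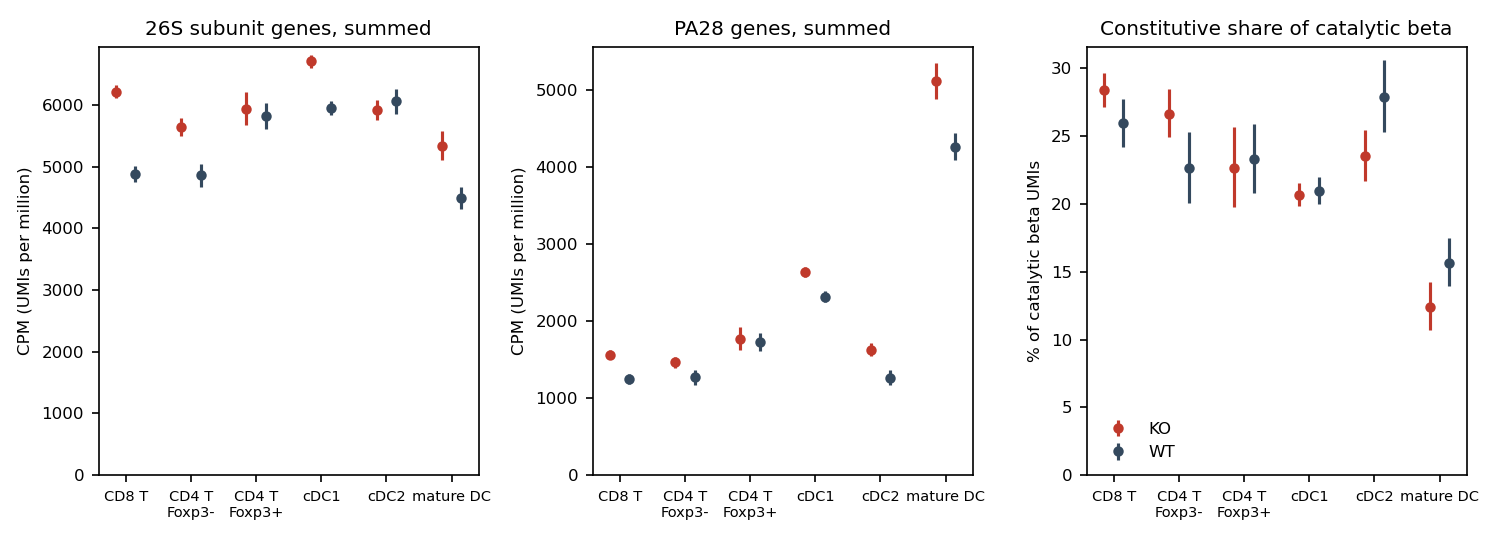
Points are the summed CPM of the 26S subunit genes and of the PA28 genes, and the constitutive share of catalytic beta UMIs, per class in the KO and WT libraries; bars are exact 95% intervals for counting error. Mature dendritic cells have the highest summed PA28 level, the lowest summed 26S level and the lowest constitutive share in both libraries.

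Between CD8 T cells and cDC1, 0 of 34 members were at least 1.5-fold higher in both libraries, against 22.8% of all genes, and 1 was lower, against 19.5% of all genes. The 1 lower member was Psme1, at 752.6 CPM in KO CD8 T cells and 1633 CPM in KO cDC1, and at 666.0 CPM in WT CD8 T cells and 1453 CPM in WT cDC1. Few members thus differed by that fold between these classes.

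Among the 38 members that reached 50 CPM in a class, those with the widest span between classes, as the ratio of the highest to the lowest class mean over the libraries, were Psme2b (5.02), Psmd9 (4.39), Psme2 (3.95), Psme1 (2.96) and Psmd5 (2.96). Psmd9 and Psmd5, chaperones that help assemble the 19S base, were lowest in mature dendritic cells. Their spans rest on few UMIs there, 6 in KO and 5 in WT for Psmd9 and 6 and 7 for Psmd5. Each reached 50 CPM in 1 class only. The highest class of Psmd5 was Foxp3-positive CD4 T cells in KO and CD8 T cells in WT. Psmd9 had 16.0 CPM in KO and 9.74 CPM in WT mature dendritic cells, and 44.5 and 68.5 CPM in Foxp3-positive CD4 T cells. The narrowest spans of these means were those of Psmd2 (1.15), the ubiquitin-binding scaffold of the base, Psma6 (1.23) of the alpha ring and Psmc4 (1.24) of the ATPase ring. The averaging hides a spread within libraries: Psmd2 lay between 73.2 and 112.9 CPM in KO and between 57.7 and 97.4 CPM in WT. Psmd14, the lid deubiquitinase, lay between 77.9 and 120.9 CPM in all 12 class and library combinations. Psmd4 lay between 145.5 and 198.7 CPM. Psma8 (7 UMIs in all cells kept, a testis form of Psma7) and Psmb11 (1 UMI) were at the edge of detection, and neither they nor Psme4 and Psmc3ip reached 50 CPM in any class.

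The constitutive catalytic genes made up the minority of catalytic beta UMIs in every class. Capture of a transcript can differ between genes, so the share of Psmb5, Psmb6 and Psmb7 in the sum with Psmb8, Psmb9 and Psmb10 is compared between classes and is not a stoichiometry. In CD8 T cells it was 28.4% in KO (27.2 to 29.7) and 25.97% in WT (24.2 to 27.8). The Foxp3-negative CD4 T cells had 26.7% in KO (24.9 to 28.5) and 22.6% in WT (20.1 to 25.3). In mature dendritic cells it was 12.4% in KO (10.7 to 14.2) and 15.6% in WT (13.9 to 17.5). The mature class was lowest in both libraries, with intervals clear of every other class. In cDC1 the share was 20.7% in KO and 21.0% in WT, and in cDC2 it was 23.5% in KO and 27.9% in WT, with Foxp3-positive cells at 22.6% and 23.3%. Without cycling cells the share in CD8 T cells was 23.7% in KO and 21.1% in WT.

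The immunoproteasome genes set the denominator. Psmb8 reached 2056 CPM in KO and 1861 CPM in WT mature dendritic cells, and 2006 and 1798 CPM in cDC1, against 1113 and 965 CPM in CD8 T cells. Psmb5 had 189.6 CPM in KO and 198.7 CPM in WT mature dendritic cells, 354.1 and 343.3 CPM in cDC1, and 315.7 and 236.6 CPM in CD8 T cells. Psmb6 showed 181.6 CPM in KO and 208.5 CPM in WT mature dendritic cells, 329.0 and 276.3 CPM in cDC1, and 290.4 and 211.4 CPM in CD8 T cells. Psmb7, the trypsin-like site, had 88.1 CPM in KO and 109.1 CPM in WT mature dendritic cells, 112.8 and 108.1 CPM in cDC1, and 84.2 and 64.2 CPM in CD8 T cells. Psmb5 was thus lower in the mature class than in cDC1 in both libraries, while the intervals of Psmb7 in these classes overlapped in both.

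In CD8 T cells, the class that E8i-cre targets, the members stood higher in the KO library as a group. The 26S sum was 6220 CPM in KO and 4883 CPM in WT, a ratio of 1.27 (1.24 to 1.31). Every subcomplex of the particle was above 1, from the non-ATPase base at 1.16 (1.02 to 1.31) to the catalytic beta genes at 1.35 (1.23 to 1.48), and PA28 was at 1.26 (1.19 to 1.34). Of 34 members that reached 50 CPM in a library, 32 had a ratio above 1, beside 60.1% of all 2729 genes tested. The median log2 ratio was 0.37, against 0.09 for all genes, and most members differed by less than 1.5-fold. In all, 2 members were at least 1.5-fold higher, where 7.88% of all genes were, and 0 were lower, where 5.68% were, so the count itself did not stand above the background.

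The highest ratios in CD8 T cells were those of the lid gene Psmd3, at 91.9 CPM in KO and 56.1 CPM in WT (1.64-fold, 1.24 to 2.19), the ATPase gene Psmc1, at 115.8 and 76.4 CPM (1.51-fold, 1.19 to 1.94), and Psmd2, at 112.9 and 77.2 CPM (1.46-fold, 1.15 to 1.88). Among members that reached 50 CPM the lowest were Psmd4, at 148.4 CPM in KO and 159.4 CPM in WT (0.931-fold, 0.775 to 1.12), the nuclear activator gene Psme3, at 63.7 and 65.9 CPM (0.968-fold, 0.728 to 1.29), and Psmd6, at 93.9 and 83.8 CPM (1.12-fold, 0.878 to 1.44). The chaperones of the base were under 50 CPM each and summed to 99.7 CPM in KO and 129.3 CPM in WT. Psmd14 had 104.1 CPM in KO and 80.5 CPM in WT, and Psme2 785.7 and 558.6 CPM.

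**Figure D3:**
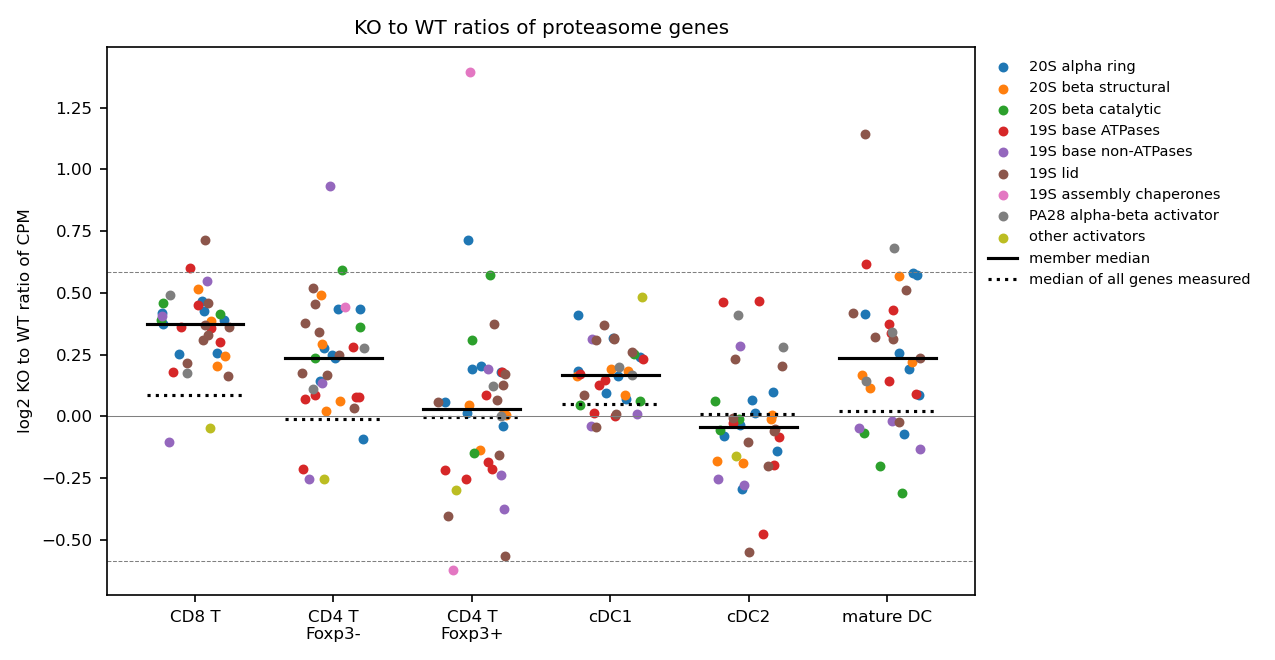
Each point is the log2 KO to WT ratio of a member that reached 50 CPM in a library, coloured by subcomplex, with the member median as a solid line and the median of all genes measured as a dotted line; dashed lines mark 1.5-fold. The member median is 0.37 in CD8 T cells and 0.17 in cDC1, against 0.09 and 0.05 for all genes.

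The make-up of the CD8 T class differed between the libraries along with these values. Cycling cells, defined by at least 3 UMIs of Mki67, Top2a, Birc5, Ube2c, Ccnb2 and Cdk1, were 29.1% of KO and 13.2% of WT CD8 T cells, and median depth was 6580 UMIs in KO and 4816 UMIs in WT. Without the cycling cells the 26S sum was 4839 CPM in KO and 3986 CPM in WT, a log2 ratio of 0.28, against 0.35 with them. After thinning every cell to 2000 UMIs the log2 ratio was again 0.28. Scaling by the median ratio of all genes gave 0.26. MHC class II genes summed to 199.9 CPM in KO and 122.8 CPM in WT CD8 T cells, and without the T cells above 0.1% of such UMIs the log2 ratio was 0.35. The defining cDC1 genes Xcr1 and Clec9a were at 0 in KO and at 0.813 CPM in WT CD8 T cells. Some other genes of antigen-presenting cells were higher in KO CD8 T cells. Lyz2 was at 95.8 CPM in KO and 33.3 CPM in WT, Irf8 at 253.9 and 100.8 CPM, and Clec10a at 25.3 and 8.13 CPM. The mature dendritic cell genes Fscn1 and Ccl22 summed to 15.1 and 0.813 CPM, and the C1q genes to 6.81 and 0 CPM. Irf8 made up most of the cDC1 check genes, which summed to 260.8 CPM in KO and 115.5 CPM in WT. The monocyte check genes summed to 1093 and 649.7 CPM. Others were lower in KO: the cDC2 check genes summed to 399.9 and 426.1 CPM, and the mature dendritic cell check genes to 244.7 and 258.6 CPM. Ly6c2 was at 761.8 CPM in KO and 988.8 CPM in WT. Genes induced by tissue dissociation, such as Fos and Jun, were lower in KO in every class, at 702.5 CPM in KO and 1068 CPM in WT CD8 T cells and at 2201 and 4370 CPM in cDC1. Genes of the NK list, some of which activated CD8 T cells also express, summed to 811.0 CPM in KO and 307.4 CPM in WT, and the part of the antigen-presenting cell, dissociation and NK genes in the result was not tested.

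Splitting the CD8 T class by cluster, a split added after the class values were seen and made without the proteasome genes, spread the 26S level more widely than the KO and WT libraries of the whole class differed. Cluster 2, whose leading genes included Igfbp4 and Lef1, had a 26S sum of 2934 CPM in KO and 3156 CPM in WT. Cluster 6, led by Gzma, Cd7 and Ccl5, had 4584 CPM in KO and 4151 CPM in WT. Cluster 10, led by Il2, Ccl1, Spp1 and Prf1, stood at 6043 CPM in KO and 5273 CPM in WT, and cluster 9, led by histone genes, Rrm2, Ccna2 and Top2a, at 7284 CPM in KO and 6448 CPM in WT. The order of the 4 clusters was the same in both libraries, and in KO it was also the order of their depth, with medians of 3714 UMIs in KO and 4333 UMIs in WT for cluster 2 and 21020 and 20050 UMIs for cluster 9.

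Cluster 2 had a KO to WT ratio of the 26S sum of 0.929 (0.826 to 1.05). The ratio in cluster 6 was 1.10 (1.02 to 1.20). Cluster 10 was at 1.15 (1.08 to 1.22), and cluster 9 gave 1.13 (1.08 to 1.19). Each of these was below the 1.27 of the whole class. Clusters 9 and 10 made up 22.8% each of KO CD8 T cells, against 10.3% and 10.9% of WT, and cluster 6 made up 23.8% of KO and 42.5% of WT. Clusters 9 and 2 were set side by side because they had the highest and the lowest 26S sum, so a difference of the members between them is built in and is given as a description. Between them, 31 of 34 members were at least 1.5-fold higher in KO, where 52.1% of all genes were, and 29 of 36 in WT, where 50.3% were. The members' median log2 ratio was 1.27 in KO and 0.98 in WT, beside 0.65 and 0.60 for all genes. Ribosomal and mitochondrial genes took 48.5% of cluster 2 UMIs in KO and 48.4% in WT, and 31.6% and 30.6% in cluster 9, and on totals without them the 26S sum was 10650 CPM in KO and 9287 CPM in WT cluster 9, against 5701 and 6123 CPM in cluster 2.

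**Figure D4:**
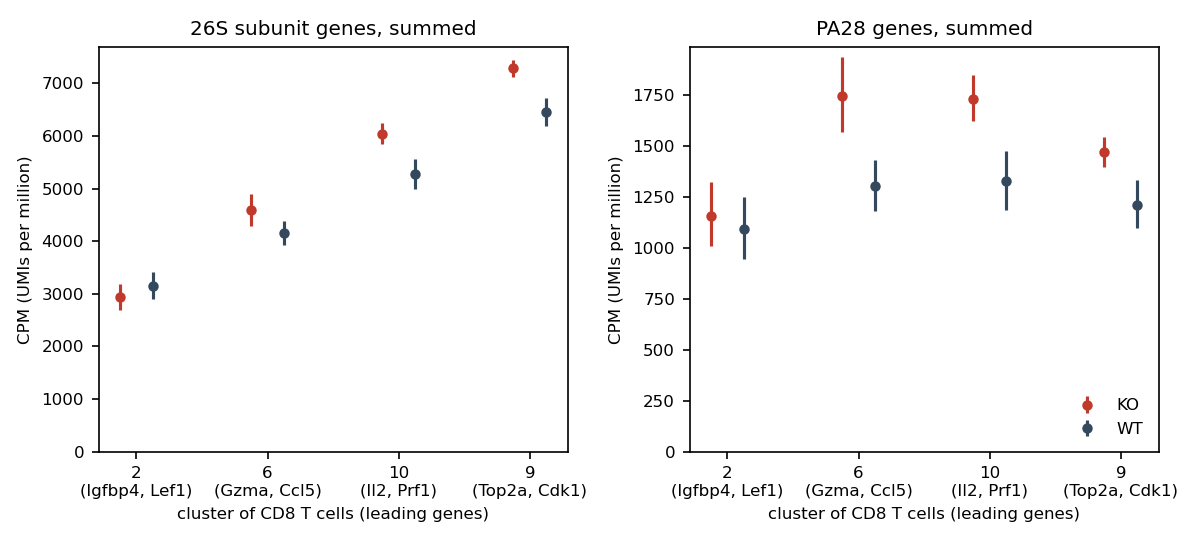
Points are the summed CPM of 26S subunit genes and of PA28 genes in 4 clusters of CD8 T cells, named by leading genes, in the KO and WT libraries, with exact 95% intervals for counting error. The 26S sum is lowest in cluster 2 (2934 CPM in KO, 3156 in WT) and highest in cluster 9 (7284 in KO, 6448 in WT), and PA28 does not share this order.

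PA28 did not follow that order. It summed to 1157 CPM in KO and 1089 CPM in WT cluster 2, 1744 and 1300 CPM in cluster 6, 1730 and 1325 CPM in cluster 10, and 1468 and 1210 CPM in cluster 9. Psme1 was at 689.7 CPM in KO and 597.8 CPM in WT cluster 9, and at 751.2 and 671.9 CPM in cluster 2, so it was no higher in the cluster with the highest 26S sum. Psme2 differed from it, at 759.2 CPM in KO and 600.6 CPM in WT cluster 9, against 394.8 and 401.1 CPM in cluster 2. Psmb5 had 373.7 CPM in KO and 347.3 CPM in WT cluster 9, against 137.1 and 224.0 CPM in cluster 2.

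Cycling cells were compared with the other cells of the same class and library, since the proteasome degrades cyclins during division. In CD8 T cells the 26S sum was 7189 CPM in cycling and 4839 CPM in other KO cells (1.49-fold, 1.43 to 1.54), and 6477 CPM in cycling and 3986 CPM in other WT cells (1.63-fold, 1.54 to 1.71). The catalytic beta genes showed the largest ratio of the 26S subcomplexes, 1.66 in KO and 2.04 in WT, and PA28 the smallest of all, 0.935 in KO (0.871 to 1.003) and 0.984 in WT (0.884 to 1.09). Psmb7 was at 110.9 CPM in cycling and 46.0 CPM in other KO cells, and at 115.1 CPM in cycling and 35.6 CPM in other WT cells, the highest ratio among members that reached 50 CPM in each library. Of such members, 14 of 34 were at least 1.5-fold higher in cycling cells in KO, where 25.5% of all genes were, and 23 of 37 in WT, where 31.9% were. Both counts stood above the background, and the median log2 ratio of the members was 0.53 in KO and 0.66 in WT, beside 0.16 and 0.21 for all genes.

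Both PA28 genes and Psmd4 were among the members with the lowest ratios of cycling to other CD8 T cells in a library. Psme1 had 719.5 CPM in cycling and 799.7 CPM in other KO cells, and 596.0 and 705.4 CPM in WT. Psme2 had 785.7 CPM in cycling and 785.6 CPM in other KO cells, and 620.8 and 523.6 CPM in WT. Psmd4 stood at 156.5 CPM in cycling and 136.8 CPM in other KO cells, and 137.7 and 171.6 CPM in WT. The cycling cells were deeper, with medians of 20380 UMIs in KO and 19820 UMIs in WT, against 4781 and 4439 UMIs in other cells. After thinning to 2000 UMIs the log2 ratio of the 26S sum was 0.71 in KO and 0.76 in WT, against 0.57 and 0.70 unthinned, and with scaling by the median of all genes it was 0.43 in KO and 0.54 in WT.

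**Figure D5:**
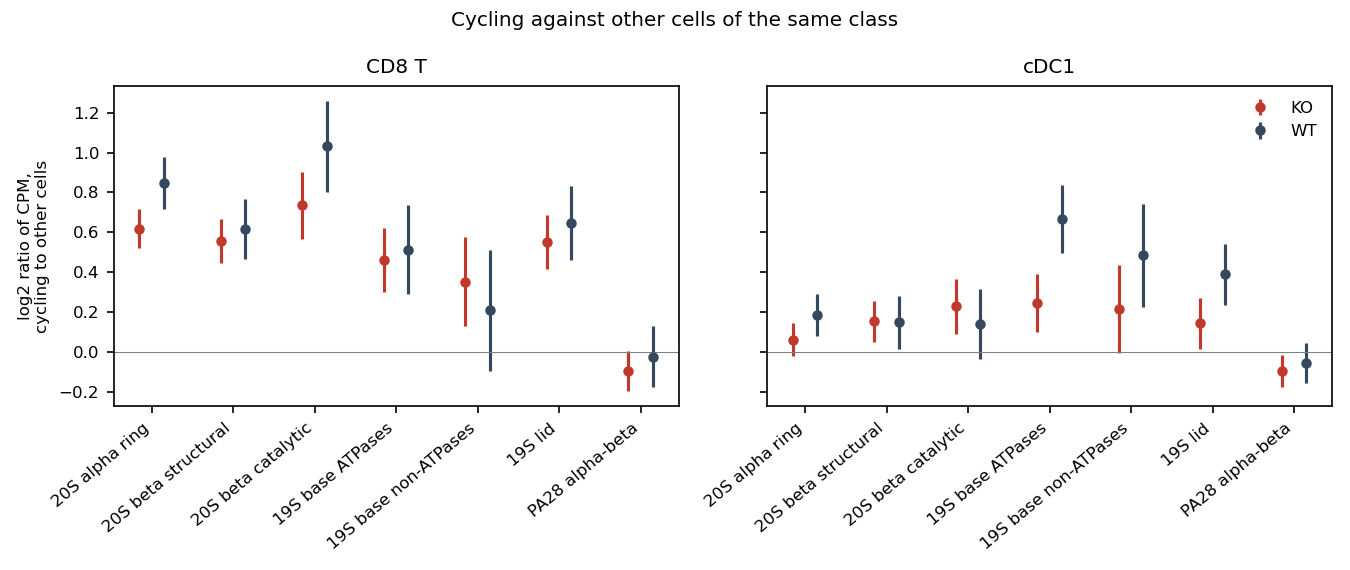
Points are log2 ratios of summed CPM in cycling to other cells, by subcomplex, in CD8 T cells and cDC1 of the KO and WT libraries, with exact 95% intervals for counting error. All 26S subcomplexes are above 0 in CD8 T cells of both libraries, and PA28 is just below 0.

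In cDC1 the difference was smaller. The 26S sum was 7171 CPM in cycling and 6502 CPM in other KO cells (1.10-fold, 1.07 to 1.14), and 6867 CPM in cycling and 5668 CPM in other WT cells (1.21-fold, 1.16 to 1.26). Among members, 0 of 34 in KO and 4 of 34 in WT were at least 1.5-fold higher, where 13.3% and 18.1% of all genes were. The ratio of the base ATPases was 1.59 in WT (1.41 to 1.79) and 1.19 in KO (1.07 to 1.31). PA28 was again below the rest, at 0.936 in KO and 0.962 in WT. The 4 members in WT cDC1 were the ATPase genes Psmc3, Psmc4 and Psmc6 and the lid gene Psmd7. In KO cDC1 their ratios were 1.33, 0.975, 1.08 and 0.860 in that order, so Psmc4 and Psmd7 were below 1 there.

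The other classes gave smaller or less stable KO to WT differences. In cDC1, 32 of 34 members were above 1, beside 59.0% of all genes; 0 were at least 1.5-fold higher and 0 lower, where 3.07% and 2.96% of all genes were, and the 26S ratio was 1.13 (1.10 to 1.15). The highest were Psme3, at 60.5 CPM in KO and 43.2 CPM in WT (1.40-fold, 1.06 to 1.86), Psma4, at 357.5 and 268.9 CPM (1.33-fold, 1.19 to 1.49), and Psmd12, at 94.7 and 73.3 CPM (1.29-fold, 1.04 to 1.61). The lowest were Psmd8, at 192.0 CPM in KO and 197.7 CPM in WT (0.971-fold, 0.844 to 1.12), Psmd2, at 92.5 and 94.9 CPM (0.975-fold, 0.796 to 1.20), and Psmc5, at 95.5 and 95.4 CPM (1.001-fold, 0.819 to 1.23). The cDC1 lie outside the CD8 T cells in which E8i-cre acts. Their shift was of the same sign as in CD8 T cells and smaller. Cycling cells were 25.4% of KO and 19.5% of WT cDC1. Without them the 26S sum was 6502 CPM in KO and 5668 CPM in WT.

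Foxp3-negative CD4 T cells had a 26S sum of 5644 CPM in KO and 4860 CPM in WT, a ratio of 1.16 (1.11 to 1.22), and 31 of 35 members were above 1, beside 48.6% of all genes. Psmd2 was highest, at 110.2 CPM in KO and 57.7 CPM in WT (1.91-fold, 1.27 to 2.95), and Psmb6 was the other member at least 1.5-fold higher, at 243.8 and 161.6 CPM; 10.5% of all genes were. None was lower by that fold, where 10.8% of all genes were, and Psmd4 was lowest, at 166.2 CPM in KO and 198.2 CPM in WT. This difference was not kept by every way of counting: the log2 ratio of 0.22 became 0.02 when each cell counted equally, -0.01 after thinning to 2000 UMIs and 0.07 without cycling cells. Within clusters the 26S sum was 4273 CPM in KO and 4561 CPM in WT in cluster 1, and 2863 and 2804 CPM in cluster 2. Cluster 1 held 43.3% of KO and 66.7% of WT cells of the class, and cluster 2 held 21.3% and 18.9%. The other clusters had too few cells of the class in a library and are not given, so these values do not cover the whole class. Cycling cells were 10.7% of KO and 4.50% of WT cells of the class. MHC class II genes summed to 284.5 CPM in KO and 75.03 CPM in WT and the C1q genes of macrophages to 213.1 and 38.5 CPM, and without T cells above 0.1% MHC class II the log2 ratio was 0.22.

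In Foxp3-positive CD4 T cells the 26S sum was 5941 CPM in KO and 5817 CPM in WT, a ratio of 1.02 (0.963 to 1.08). Psmd5 was highest, at 63.6 CPM in KO and 24.2 CPM in WT (2.63-fold, 1.22 to 5.90, from 20 and 12 UMIs), and Psma4 was also at least 1.5-fold higher, at 248.1 and 151.2 CPM. Psmd9 was the 1 member lower, at 44.5 CPM in KO and 68.5 CPM in WT (0.650-fold, 0.322 to 1.24). By the same rule 9.83% of all genes were higher and 11.0% lower, so 2 and 1 of 36 members were below the background. Genes of antigen-presenting cells were uneven in this class, with Lyz2 at 1527 CPM in KO and 100.8 CPM in WT. The C1q genes summed to 6.36 CPM in KO and 191.5 CPM in WT, and Fscn1 and Ccl22 to 0 and 110.9 CPM. MHC class II genes summed to 550.2 and 697.4 CPM. The part of Lyz2, the C1q genes, Fscn1 and Ccl22 in these values was not tested.

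In cDC2 the 26S sum was 5920 CPM in KO and 6061 CPM in WT, a ratio of 0.977 (0.934 to 1.02) whose interval spans 1 and whose sign changed with classes by cluster (log2 ratio 0.037), while PA28 was higher in KO, at 1629 CPM, against 1266 CPM in WT (1.29-fold, 1.17 to 1.41). No member of 34 was at least 1.5-fold higher or lower in cDC2, where 7.15% and 6.54% of all genes were; Psmc3 was highest, at 182.6 CPM in KO and 131.9 CPM in WT, and Psmd12 lowest, at 60.0 and 87.9 CPM. In mature dendritic cells the 26S sum was 5335 CPM in KO and 4493 CPM in WT (1.19-fold, 1.12 to 1.26), with the lid at 1.41 (1.21 to 1.64) and the catalytic beta genes at 0.889 (0.730 to 1.08). There 3 of 33 members were at least 1.5-fold higher, where 8.37% of all genes were, and 0 lower, where 9.12% were. They were Psmd11, at 189.6 CPM in KO and 85.7 CPM in WT (2.21-fold, 1.497 to 3.30), Psme2b, and Psmc6, at 125.5 and 81.8 CPM; Psmb7 was lowest, at 88.1 CPM in KO and 109.1 CPM in WT. After thinning, the log2 ratio of the 26S sum in this class was 0.10, against 0.25. Gated monocytes were too few in WT, and gated macrophages were too few in both libraries. These classes were taken by cluster, which was added after the gates were counted. Their 26S sums were then 5640 CPM in KO and 5386 CPM in WT monocytes (88 and 27 cells). In macrophages the sums were 6441 and 6258 CPM (62 and 70 cells). These values cover whole clusters, each named by its commonest gate. In the macrophage cluster 38 cells met the macrophage gate, 12 the monocyte gate and 66 no gate. In the monocyte cluster 70 cells met the monocyte gate and 30 no gate. Both clusters also held some cells of the T cell gates.

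Genes that work with the proteasome were taken from lists made for the same comparison. All 3 immunoproteasome beta genes reached 50 CPM, as did 4 of 5 ubiquitin genes in cDC1 and 5 elsewhere. Of these, 0 were 1.5-fold higher or lower in any of the 6 classes. By that rule 3.07% to 10.5% of all genes were higher and 2.96% to 11.0% lower, so 0 among so few genes is near those shares. Below that fold, the 3 immunoproteasome genes were above 1 in every class but Foxp3-negative CD4 T cells. There Psmb8 was at 1.11, Psmb9 at 0.990 and Psmb10 at 0.935. Among assembly and regulatory genes, 1 of 11 measured in CD8 T cells was higher, namely Uchl5, a deubiquitinase that binds the base, at 87.6 CPM in KO and 56.1 CPM in WT (1.56-fold, 1.18 to 2.09). By the same rule 7.88% of all genes were higher in CD8 T cells, near that share. In mature dendritic cells 2 of 8 were higher, where 8.37% of all genes were: Rad23b, a ubiquitin shuttle, at 80.1 CPM in KO and 48.7 CPM in WT, and Vcp, the ATPase that extracts ubiquitin-tagged proteins, at 349.8 and 231.9 CPM. In CD8 T cells the median log2 ratio was 0.24 for the immunoproteasome beta genes and 0.16 for the assembly and regulatory genes. It was -0.20 for the ubiquitin genes, beside 0.37 for the members and 0.09 for all genes.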

How the data were processed

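The authors deposited 1 matrix per library of UMI counts per gene and barcode; the values are whole numbers. Cell Ranger 1.3 and the mm10 build are named per the submitters' processing notes, while the matrix headers name software version 3.0.2; chemistry and annotation release are not given in the sources used here. Cells with at least 500 UMIs and 300 genes and at most 10% mitochondrial UMIs were kept. Scrublet (scanpy 1.11.5, expected rate 6%) marked 3 KO and 5 WT barcodes as doublets, which were left out.

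T cells had at least 2 Cd3 UMIs and at most 0.5% MHC class II UMIs, and were split by Cd8a with Cd8b1, Cd4 and Foxp3. Dendritic cells had at most 1 Cd3 UMI and at least 1% MHC class II, with at least 2 UMIs of Xcr1 and Clec9a (cDC1) or of Cd209a, Mgl2 and Clec10a (cDC2); mature ones had at least 0.5% and 3 UMIs of Fscn1 and Ccl22. Cells that met several gates or none were not used in the gated classes. Classes needed 25 cells in both libraries. The 17 Leiden clusters (leidenalg 0.10.2, resolution 1, 15 neighbours, 30 components) used 2000 variable genes without the proteasome genes, Tcf7, mitochondrial and T cell receptor genes.

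UMIs were summed per class and scaled to CPM. A gene counted as measured with at least 50 CPM in 1 side of a comparison and as higher or lower at 1.5-fold. Intervals at 95% are exact Poisson, conditional binomial or Clopper-Pearson (scipy 1.17.1). Only the conditional binomial ones were tried on simulated data. Those counts were drawn from the WT profile of a class and hold no spread between cells or mice, so they check the calculation only. Named genes were Psmb5, Psmb6, Psmb7, Psme1, Psme2, Psmd14 and Psmd4, the 3 highest and 3 lowest KO to WT ratios in CD8 T cells and cDC1, the ends in other classes, the 5 widest and 3 narrowest spans between classes, and pathway genes past 1.5-fold. Other members are named as examples chosen after their values were seen. The members and lists were chosen with earlier results of these data known. Alternatives were other gates, clusters, cell filters, scalings, thinning, level minimums and cells left out.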

Additional observations from a re-analysis of the deposited data

How the results depend on the processing

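Of the main values recomputed, 335 stayed within their counting error (counts: within 1.5 times) and 101 moved by more. The removal of T cells with over 0.1% MHC class II UMIs and the levels by cluster were chosen after seeing the data. The cause of each move was not tested. All log2 values below are KO to WT ratios of the 26S sum unless named, and counts are of members at least 1.5-fold higher or lower in KO. The share of all genes called under each alternative is not given. These counts were thus not set against a background, and no result about the members is read from them.

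With each cell counted equally, the log2 ratio was 0.28 in CD8 T and 0.019 in Foxp3-negative cells, the member medians were 0.28 and 0.021, and cycling to other KO CD8 T cells was 0.69. The constitutive share was then 24.3% in KO and 21.6% in WT CD8 T cells and 21.4% in KO Foxp3-negative cells. Counts were 0 higher and 1 lower in Foxp3-negative cells, 1 higher and 2 lower in Foxp3-positive cells, and 5 higher in mature dendritic cells. Under median-ratio scaling the log2 ratio was 0.26 in CD8 T cells (member median 0.29, 1 higher) and 0.12 in cDC1. The log2 ratio of cycling to other cells was then 0.43 in KO and 0.54 in WT CD8 T cells and 0.18 in WT cDC1. Mature dendritic cells over cDC1 gave -0.19 in KO and -0.29 in WT for 26S, and 1.10 and 0.99 for PA28. On totals without ribosomal and mitochondrial genes, CD8 T cells gave 0.30, with 1 higher and 1 lower, cycling gave 0.50 in KO and 0.57 in WT, mature dendritic cells had 1 lower, and their WT ratio to cDC1 was -0.48.

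After thinning to 2000 UMIs the log2 ratio was 0.28 in CD8 T (member median 0.28), -0.011 in Foxp3-negative, -0.11 in Foxp3-positive, 0.22 in cDC1, -0.10 in cDC2 (member median -0.16) and 0.10 in mature dendritic cells. Cycling to other KO CD8 T cells gave 0.71, and mature dendritic cells over cDC1 gave -0.51 in KO. Thinned shares were 23.8% in KO and 23.1% in WT CD8 T cells, 19.7% in KO and 24.9% in WT cDC2, and in KO 20.1% in Foxp3-negative, 17.6% in Foxp3-positive, 22.7% in cDC1 and 10.2% in mature dendritic cells. Thinned counts were 4 lower in Foxp3-negative, 4 higher and 6 lower in Foxp3-positive, 5 higher in cDC1, 4 higher and 8 lower in cDC2, and 9 higher and 4 lower in mature dendritic cells.

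Without cycling cells the log2 ratio was 0.28 in CD8 T (member median 0.27), 0.071 in Foxp3-negative (member median 0.082) and -0.10 in Foxp3-positive cells. Shares were 23.7% in KO and 21.1% in WT CD8 T cells and 22.7% in KO Foxp3-negative cells, and counts were 1 higher and 1 lower in Foxp3-negative, 4 lower in Foxp3-positive, 1 higher in cDC1, and 1 higher and 1 lower in cDC2. Stricter gates gave 1 higher in CD8 T, 4 higher in Foxp3-negative and 1 higher in cDC1, a share of 28.7% in KO Foxp3-negative cells and 0.51 for cycling KO CD8 T cells. Classes by cluster gave 1 higher in CD8 T, 4 in Foxp3-negative and 1 in mature dendritic cells, 0.037 in cDC2 (member median 0.021), and cycling ratios of 0.079 in KO and 0.13 in WT cDC1.

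A minimum of 200 CPM gave 0 higher in CD8 T, 1 in Foxp3-negative and 1 in Foxp3-positive cells (0 lower), and 0 higher in mature dendritic cells. No minimum gave 4 higher in CD8 T, 6 in Foxp3-negative, 2 in cDC1 and 4 in cDC2, with 3 lower in Foxp3-positive and 1 lower in mature dendritic cells; at 20 CPM there were 5 higher in Foxp3-negative and 2 in cDC2, with 3 and 1 lower in the same 2 classes. Without the deepest cell, Foxp3-positive cells gave -0.076 with 1 higher, and mature dendritic cells had 1 higher. No paired analysis was possible because each genotype has 1 library. Depth limits the classes with under 100 cells, where single members rest on few UMIs.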
